A study of Mus musculus with 8 samples.

Results

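The core circadian clock genes are the activators Arntl (whose protein is also called BMAL1), Clock and Npas2 and the repressors Per1, Per2, Per3, Cry1, Cry2, Nr1d1 (REV-ERBα) and Nr1d2 (REV-ERBβ), 10 genes named by their place in the clock loop; the set was proposed with earlier results of these data known. Of these, 9 were measured, each by 1 probe set that the platform annotation gives to that gene alone, among 19938 genes tested. They comprise 2 activators and all 7 repressors. Npas2 was not analysed here, because no probe set names it in the annotation used. Liver RNA was hybridized to Affymetrix Mouse Gene 1.0 ST arrays, each mouse on its own array, with 4 mice fed HFD+WBM, a high fat diet supplemented with powder of the white button mushroom (WBM), and 4 mice fed the high fat diet alone (HFD). All 8 were female C57B1/6J mice that were ovariectomized (OVX) at 7 weeks of age, a model of the loss of ovarian estrogen in which estrogen from other tissues remains. Both groups ate their diet for 3 months from the week after surgery, were housed under a light/dark cycle and were fasted before sacrifice. Pair feeding gave the HFD mice the amount of food that the HFD+WBM mice had eaten on the day before, and neither the labels nor the methods state the hour of sacrifice.

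The clock in each cell of the liver is a loop of transcription. BMAL1 pairs with CLOCK or NPAS2 and binds E-boxes in front of Per, Cry and Rev-erb genes, whose proteins then shut the loop down: PER and CRY proteins enter the nucleus and inhibit the activator pair, while REV-ERB proteins compete with ROR proteins at ROR elements of Arntl and silence it. In the liver of mice on a light/dark cycle the mRNA of Arntl therefore peaks at another time of day than that of Nr1d1, Dbp and the Per genes, and the time of feeding can set this phase.

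Deposited values were log2 expression values, on which a difference of 1 is a 2-fold change. Array medians were 7.11 to 7.19 in the HFD+WBM group and 7.04 to 7.22 in the HFD group. All 8 measured hepatocyte markers were at 11.50 or higher on every array. HFD replicate 3 stood apart from the rest, with deviations from the average of the rest that had an SD of 0.68 over the 19938 genes, whereas the other 7 arrays had 0.38 to 0.50. Where a clock gene's call or called value turned on this array, the value without it is given. No gene of the 19938 passed an adjusted p of 0.05 (Benjamini-Hochberg over all genes, limma; 0.0%), and 2341 had p under 0.05 before adjustment, the mark by which a gene is said to be called below. No clock gene passed after adjustment in any of the settings tried. The study's own thresholds, that p together with a 2-fold change, were passed by 152 genes (0.762%) and by 0 of the 9 clock genes.

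The sites through which the loop closes are shown here from RefSeq promoter sequences of the assembly GRCm38.p6, which cover 250 bases before and 50 bases after each start site. Of the 10 clock genes, 9 have such a window, some of them several. Per2 has none in the table used. Each stretch of 30 bases is written 5′ to 3′ on the strand of its gene, with the searched letters in capitals. The E-box was searched as CACGTG and its variant form as CACGTT, the ROR element as ANTAGGTCA and the D-box as TTATGNAA, all on both strands, so that a variant E-box on the opposite strand reads AACGTG. Positions count from the start site, negative before it. The only match to the searched ROR letters in the Arntl windows begins at position 29, within the transcript. Forms that differ from the searched letters were not looked for.
Arntl ROR element (chr7:113207529-113207558, plus strand): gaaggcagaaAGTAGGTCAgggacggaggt
The E-boxes of the repressor genes begin at −166 in Per1, at −60 and −79 in Cry1, at −166 in Cry2 and at −28 in Nr1d1.
Per1 E-box (chr11:69098771-69098800, plus strand): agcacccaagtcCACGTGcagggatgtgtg
Cry1 E-box (chr10:85185097-85185126, minus strand): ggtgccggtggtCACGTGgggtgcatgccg
Cry1 variant E-box (chr10:85185116-85185145, minus strand): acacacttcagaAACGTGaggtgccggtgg
Cry2 variant E-box (chr2:92434218-92434247, minus strand): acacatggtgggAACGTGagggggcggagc
Nr1d1 variant E-box (chr11:98775388-98775417, minus strand): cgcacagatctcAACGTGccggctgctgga
D-boxes, which bind the DBP, TEF and HLF proteins and their repressor NFIL3, begin at −24 in Per1 and at −158 and −205 in Per3.
Per1 D-box (chr11:69098914-69098943, plus strand): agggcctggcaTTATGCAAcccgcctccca
Per3 D-box near the start (chr4:151044805-151044834, minus strand): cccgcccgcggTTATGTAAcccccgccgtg
Per3 D-box further away (chr4:151044852-151044881, minus strand): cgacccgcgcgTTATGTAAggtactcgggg
Over all 32851 windows of 300 bases in the table, 7.15% held CACGTG, 4.68% CACGTT, 0.661% ANTAGGTCA and 3.38% TTATGNAA. No match was found in the windows of Clock, Npas2 and Nr1d2, which says only that these letters are not there. A match is a match of letters, and no binding was measured in these livers.

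The full stretch of 250 bases before one of the Per1 start sites, which holds both an E-box and a D-box, is given because Per1 is the repressor with the largest difference between the diets.
Per1 upstream (chr11:69098699-69098948, plus strand): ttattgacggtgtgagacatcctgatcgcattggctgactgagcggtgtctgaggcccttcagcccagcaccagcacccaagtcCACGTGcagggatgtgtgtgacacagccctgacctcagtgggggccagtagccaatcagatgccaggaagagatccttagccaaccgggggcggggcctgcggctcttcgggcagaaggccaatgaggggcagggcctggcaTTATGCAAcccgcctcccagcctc

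Both measured activators were lower in livers of mice fed HFD+WBM than in those of mice fed HFD. Among all genes, 6.9% were lower at p under 0.05 and 5.02% had every HFD+WBM mouse below every HFD mouse. Arntl was at 5.84, 6.47, 5.92 and 6.28 in HFD+WBM replicates 1 to 4, against 6.50, 7.10, 7.78 and 7.05 in HFD replicates 1 to 4. All 4 HFD+WBM livers lay below all 4 HFD livers, by a margin of only 6.47 against 6.50 between the closest mice, and HFD replicate 3 was the highest of the 8. The means were 6.13 ± 0.30 with HFD+WBM and 7.11 ± 0.52 with HFD (SD, n = 4 each). The difference was −0.98 ± 0.27 (SE), a 1.97-fold lower value just short of the 2-fold threshold (limma p = 0.0049, adjusted p = 0.37; exact permutation p = 0.029, the smallest that 4 against 4 mice can give). Without HFD replicate 3 the difference was −0.76 and the call remained. The mean of Arntl over the 8 mice, 6.62, lies below the median of all genes, 7.27, and its fold depends on the offset before the log: with 64 added the difference was −0.60.

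Clock, the DNA-binding partner of BMAL1, showed a smaller difference and overlapping groups. It was at 8.08, 8.55, 7.88 and 8.48 in the HFD+WBM livers and at 8.94, 8.44, 8.88 and 8.72 in the HFD livers. HFD+WBM replicates 1 and 3 were the lowest of all mice, as they were for Arntl, whereas HFD replicate 2, with 8.44, lay within the HFD+WBM range. The difference was −0.50 ± 0.20 (SE), 1.41-fold lower, with limma p = 0.031, adjusted p = 0.40 and exact permutation p = 0.086. The call was lost in 7 of 18 alternative settings, among them the fits without HFD replicate 1 (−0.43), 3 (−0.45) or 4 (−0.51) and without HFD+WBM replicate 1 (−0.44) or 3 (−0.37).

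**Figure D1:**
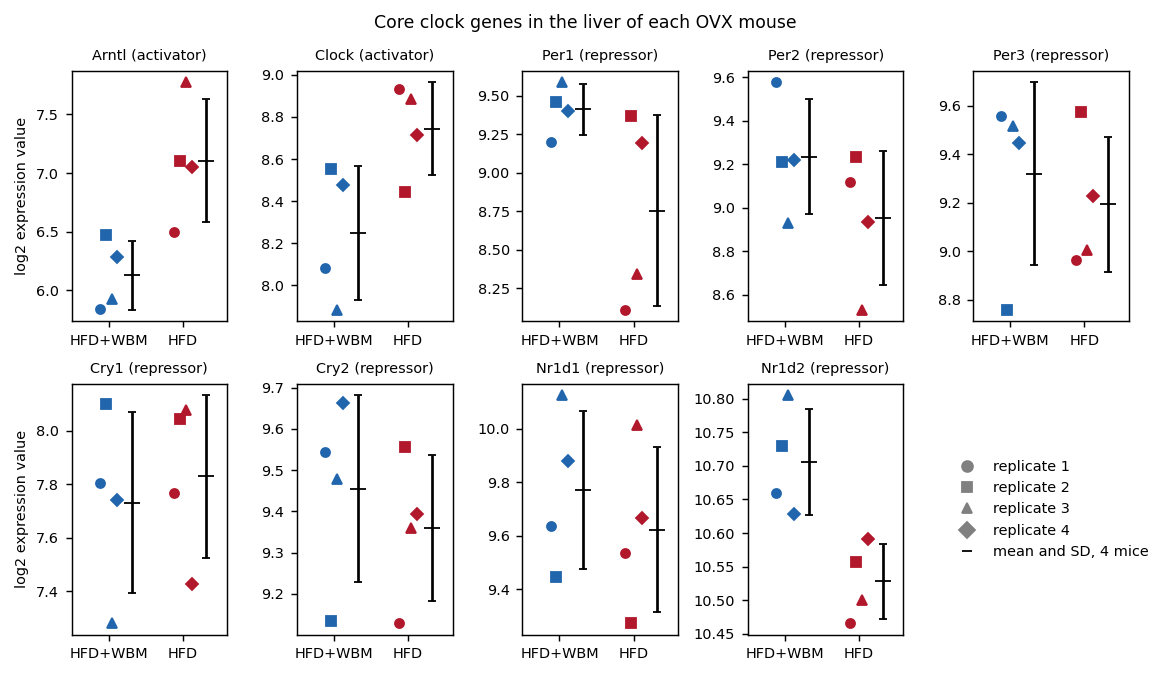
Log2 expression value (vertical axis, scaled for each gene) of the 9 measured clock genes in each of the 4 HFD+WBM mice (blue, left) and the 4 HFD mice (red, right), with symbols for the replicate number and bars for the mean and SD. Arntl has all HFD+WBM mice below all HFD mice and Nr1d2 has all of them above, while the groups of the other 7 genes overlap.

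Of the 7 repressors, 6 had a higher mean with HFD+WBM and 1, Per1, was called, against 4.85% of all genes called higher. PER proteins form the inhibitory complex with CRY proteins, and Per1 is among the members that fast signals, such as glucocorticoids, also induce. Per1 was at 9.20, 9.46, 9.59 and 9.40 in HFD+WBM livers, against 8.11, 9.37, 8.34 and 9.19 in HFD livers. The HFD+WBM mice lay close together and 3 of the 4 exceeded every HFD mouse, while HFD replicates 1 and 3 were lower than all others by over 0.8. The means were 9.41 ± 0.16 with HFD+WBM and 8.75 ± 0.62 with HFD (SD, n = 4 each), a difference of 0.66 ± 0.28 (SE) or 1.58-fold (limma p = 0.044, adjusted p = 0.41; exact permutation p = 0.057). The call was lost without HFD replicate 1 (difference of 0.44) or 3 (0.52), without HFD+WBM replicate 2 (0.64), 3 (0.60) or 4 (0.66), and in 7 of 18 settings in all.

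Per2, the gene whose protein also carries the inhibitory complex, had values of 9.58, 9.21, 8.93 and 9.22 in HFD+WBM livers and 9.12, 9.24, 8.53 and 8.93 in HFD livers. Its highest value came from HFD+WBM replicate 1 and its lowest from HFD replicate 3, with overlap in between, and the difference of 0.28 (95% interval −0.17 to 0.74) did not pass (limma adjusted p = 0.58; exact permutation p = 0.29). It was 0.14 when HFD replicate 3 was left out and 0.17 when HFD+WBM replicate 1 was. Per3, an accessory member of the family, was at 9.56, 8.76, 9.52 and 9.45 with HFD+WBM and at 8.96, 9.57, 9.01 and 9.23 with HFD. Here HFD+WBM replicate 2 was the lowest mouse of all and HFD replicate 2 the highest, against the means of their diets. The difference was 0.13 (95% interval −0.37 to 0.63; limma adjusted p = 0.84; exact permutation p = 0.63).

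The cryptochromes, the direct inhibitors of CLOCK and BMAL1, showed no difference that passed. Cry1 was at 7.80, 8.10, 7.28 and 7.74 in HFD+WBM livers and at 7.77, 8.04, 8.08 and 7.43 in HFD livers, so that the groups covered nearly the same range. It was the only repressor with a lower mean with HFD+WBM (−0.10, 95% interval −0.59 to 0.39; limma adjusted p = 0.88; exact permutation p = 0.69), and the sign turned with array weights (0.012) and without HFD+WBM replicate 3 (0.052). Cry2 was at 9.54, 9.14, 9.48 and 9.66 in HFD+WBM livers, against 9.13, 9.56, 9.36 and 9.39 in HFD livers. Its difference of 0.10 had a 95% interval of −0.28 to 0.47 (limma adjusted p = 0.84; exact permutation p = 0.51).

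The REV-ERB receptors, which bind heme and silence Arntl, differed in how tightly the mice clustered. Nr1d2 was at 10.66, 10.73, 10.81 and 10.63 in HFD+WBM livers, against 10.47, 10.56, 10.50 and 10.59 in HFD livers. Every HFD+WBM mouse exceeded every HFD mouse, as for 3.21% of all genes, by a small step: the means were 10.71 ± 0.08 with HFD+WBM and 10.53 ± 0.06 with HFD (SD, n = 4 each), or 1.13-fold. The exact permutation test gave p = 0.029, again the smallest possible. The limma fit, which draws small variances towards those of other genes, gave 0.18 ± 0.13 (SE, 95% interval −0.11 to 0.47) with adjusted p = 0.58, and Nr1d2 was not called. Nr1d1 was at 9.63, 9.45, 10.13 and 9.88 in HFD+WBM livers and at 9.54, 9.27, 10.01 and 9.67 in HFD livers. In both diets replicate 3 was the highest and replicate 2 the lowest, and the difference between diets of 0.15 (95% interval −0.32 to 0.62) was smaller than the SD within each, 0.30 with HFD+WBM and 0.31 with HFD (limma adjusted p = 0.79; exact permutation p = 0.51). Leaving out 1 mouse at a time gave 0.03 to 0.28, the highest when HFD replicate 3 was left out.

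In total, 2 of 2 activators were called lower, against 6.9% of all genes, and 1 of 7 repressors higher, against 4.85%. Over all 19938 genes, 2341 were called in either direction. The median difference was −0.74 over the 2 activators and 0.15 over the 7 repressors, against 0.01 over all 19938 genes. The number of clock genes called, 3 of 9, was 1 without HFD replicate 1, without HFD replicate 3, without HFD+WBM replicate 3 or with array weights, in each case Arntl.

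**Figure D2:**
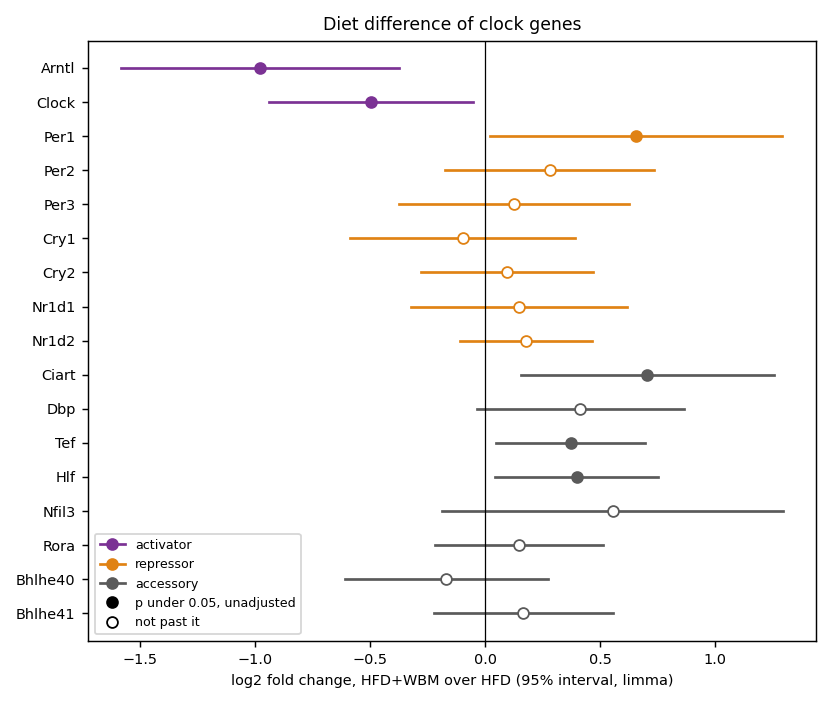
Log2 fold change of HFD+WBM over HFD (horizontal axis) with its 95% interval from limma for the 2 measured activators, the 7 repressors and 8 accessory clock genes. Filled points had p under 0.05 before adjustment: Arntl and Clock lie to the left of 0, and Per1, Ciart, Tef and Hlf to the right.

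Whether activators and repressors ran opposite ways was also followed mouse by mouse. Each gene was set to its deviation from its own mean over the 8 mice, and deviations were averaged over the 2 activators and over the 7 repressors. The activator mean was −0.60, −0.05, −0.66 and −0.18 in HFD+WBM replicates 1 to 4 and 0.16, 0.22, 0.77 and 0.33 in HFD replicates 1 to 4. The repressor mean was 0.15, −0.01, 0.11 and 0.15 in the HFD+WBM mice and −0.26, 0.10, −0.16 and −0.07 in the HFD mice. The repressor mean thus exceeded the activator mean in all 4 HFD+WBM mice, by 0.03 to 0.77, and lay below it in all 4 HFD mice, by differences of −0.93 to −0.12. The activator mean alone already separated the diets, while the repressor mean overlapped, so this order is not separate evidence of opposition. HFD+WBM replicate 2 was the mouse nearest to balance in its group and HFD replicate 2 in the other. Over the 8 mice the means of the arms had a Pearson's r of −0.69 and a Spearman's rho of −0.71. Once the mean of each diet was removed r was −0.30 and rho −0.14. These coefficients are given as descriptions.

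**Figure D3:**
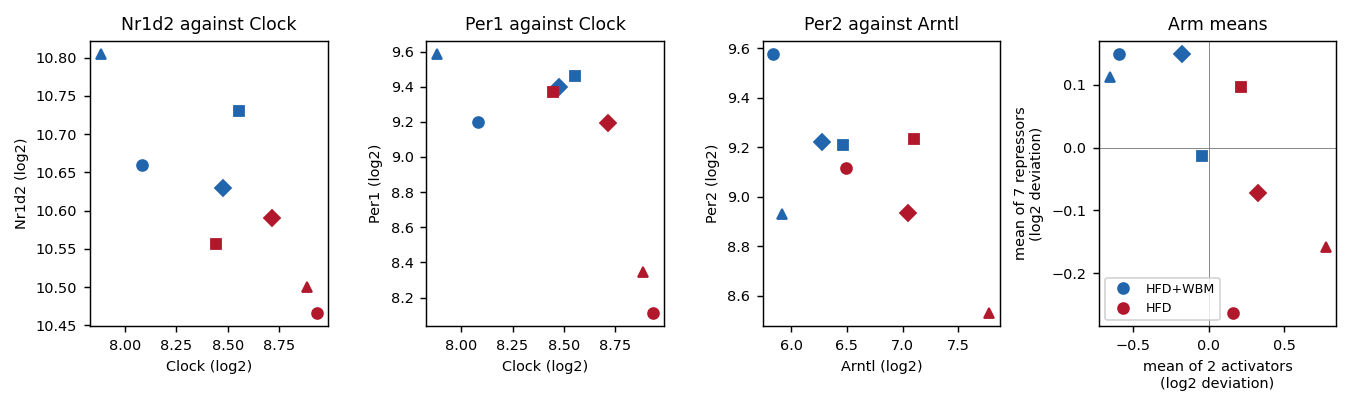
Each point is 1 mouse (HFD+WBM blue, HFD red, symbols for the replicate number): Nr1d2 and Per1 against Clock, Per2 against Arntl, all as log2 expression values, and the mean deviation of the 7 repressors against that of the 2 activators. On average the HFD+WBM mice lie at lower activator and higher repressor values than the HFD mice. The diets overlap in Clock, Per1, Per2 and the repressor mean. The values of r from left to right are −0.82, −0.74, −0.70 and −0.69.

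Of the 14 pairs of a measured activator and a repressor, 12 had a negative r over the 8 mice, with a median of −0.45 and a range of −0.82 to 0.45. The 2 positive pairs were those of Cry1 with Arntl (0.45) and with Clock (0.43). The strongest was Clock with Nr1d2 (r = −0.82, exact permutation p = 0.013; rho = −0.76, exact permutation p = 0.037), followed by Clock with Per1 (r = −0.74, exact permutation p = 0.041; rho = −0.76, exact permutation p = 0.037). Both kept their sign without the 2 mice farthest from the median of Clock, HFD+WBM replicates 1 and 3, at −0.69 and −0.93. None of the 14 pairs passed Benjamini-Hochberg adjustment over the family (two-sided tests, adjusted p = 0.18 for Clock with Nr1d2 and 0.21 for Clock with Per1).

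Arntl with Per2 had an r of −0.70 (exact permutation p = 0.053, adjusted p = 0.21; rho = −0.40, exact permutation p = 0.33) that rested on HFD replicate 3 and HFD+WBM replicate 1, the mice at the ends of the Arntl range, since r was 0.17 without them. Arntl with Nr1d2 had an r of −0.66 (exact permutation p = 0.078, adjusted p = 0.22; rho = −0.74, exact permutation p = 0.046) and −0.61 without the same mice. Arntl with Nr1d1, the other REV-ERB gene, had an r of −0.08 (exact permutation p = 0.85, adjusted p = 0.85; rho = −0.19, exact permutation p = 0.66). That value turned on a few mice as well, being −0.77 without HFD replicate 3 and HFD+WBM replicate 1.

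The mice of the 2 diets form separate groups for Arntl and for Nr1d2, and Clock and Per1 were called between the diets. The r over the 8 mice therefore also carries the diet difference, so each pair was computed again from deviations from the diet means. Negative pairs then numbered 8 of 14, with a median r of −0.11. Clock kept negative values with 6 of the 7 repressors and a median of −0.53, the lowest with Per3 (r = −0.80, exact permutation within diets p = 0.010, adjusted p = 0.15). Its r was −0.58 with Nr1d2 (exact permutation within diets p = 0.20, adjusted p = 0.59). With Per1 it was −0.53 (exact permutation within diets p = 0.12, adjusted p = 0.59). Arntl kept 2 of 7, with Per2 (−0.58) and Per3 (−0.32), and its r with Nr1d2 was 0.03. The difference between Clock and Arntl in this respect was not tested.

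**Figure D4:**
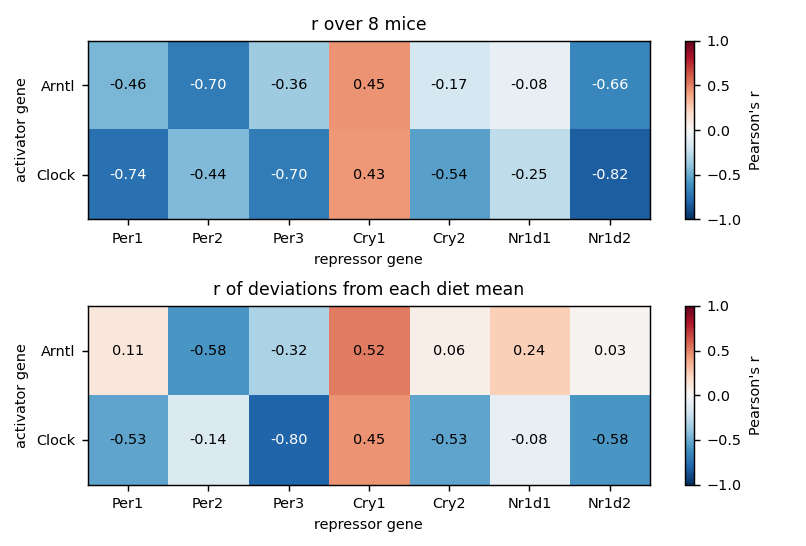
Pearson's r of each of the 2 measured activators (rows) with each of the 7 repressors (columns), over the 8 mice (upper panel) and from deviations from each diet mean (lower panel), on a colour scale of −1 to 1. In the upper panel 12 of 14 cells are below 0, all but those of Cry1, and in the lower panel 8 are.

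Within the arms, Arntl and Clock had an r of 0.72 (exact permutation p = 0.044; rho = 0.64, exact permutation p = 0.096), which was 0.55 without the 2 farthest mice and 0.34 from deviations from the diet means. Among the repressors 14 of 21 pairs were positive. Per3 and Cry2 moved most closely together (r = 0.90, exact permutation p = 0.0028; rho = 0.83, exact permutation p = 0.015), at 0.75 without the 2 farthest mice and 0.89 from deviations from the diet means. Both genes were lowest in HFD+WBM replicate 2 and HFD replicate 1 among the 8 mice, whereas their diet means hardly differed. Per1 and Nr1d2 came next (r = 0.82, exact permutation p = 0.012; rho = 0.88, exact permutation p = 0.0072), at 0.70 without the 2 farthest mice. Per2 and Nr1d1 had a negative r that did not pass (r = −0.55, exact permutation p = 0.15, adjusted p = 0.72), with a rho of −0.64 (exact permutation p = 0.096). Their r was −0.60 without the 2 farthest mice and −0.82 from deviations from the diet means (exact permutation within diets p = 0.031, adjusted p = 0.25). Adjusted over the 22 pairs within the arms, the lowest p was 0.061, that of Per3 with Cry2.

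The accessory genes of the clock, listed by function, comprised 10 measured genes, of which 3 were called higher and 0 lower with HFD+WBM, against 4.85% and 6.9% of all genes, with a median difference of 0.27. DBP, TEF and HLF are transcription factors of the PAR bZIP family that act at D-boxes such as those of Per1 and Per3 above, and NFIL3 represses at these sites. Tef was at 10.98, 11.07, 11.32 and 11.07 in HFD+WBM livers, against 10.90, 10.78, 10.63 and 10.64 in HFD livers, with no overlap, as for 3.21% of all genes (0.37 ± 0.14, SE; limma p = 0.029, adjusted p = 0.40, exact permutation p = 0.029). Hlf was at 9.94, 10.23, 10.19 and 10.42 in HFD+WBM livers, against 9.91, 9.92, 9.60 and 9.75 in HFD livers, also without overlap though by a narrow step (0.40 ± 0.16, SE; limma p = 0.031, adjusted p = 0.40, exact permutation p = 0.029). For Dbp, the PAR bZIP gene with the widest daily rhythm, 3 of 4 HFD+WBM mice (11.00, 11.28 and 10.79) lay above the HFD mice, which were at 10.38 to 10.46, while HFD+WBM replicate 2 was lowest of all at 10.33. Its difference was 0.41 (limma adjusted p = 0.45, exact permutation p = 0.14). The call of Tef was lost without HFD replicate 3 (0.34) or 4 (0.34) or HFD+WBM replicate 3 (0.30), and that of Hlf without HFD replicate 3 (0.33) or 4 (0.38) or HFD+WBM replicate 2 (0.39), 3 (0.40) or 4 (0.32). Nfil3 had a difference of 0.55 with wide spread (SE of 0.33, limma adjusted p = 0.52, exact permutation p = 0.23).

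Ciart, also called CHRONO, a repressor that binds BMAL1, was at 8.90, 8.85, 9.58 and 9.32 in HFD+WBM livers and at 8.10, 8.97, 8.16 and 8.60 in HFD livers. HFD replicates 1 and 3 were low and HFD replicate 2 lay within the HFD+WBM range, the order also seen for Per1. The difference was 0.70 ± 0.24 (SE), 1.63-fold, with limma p = 0.017, adjusted p = 0.38 and exact permutation p = 0.086, and the call was lost without HFD replicate 1 (0.58) or HFD+WBM replicate 3 (0.57). Rora, which activates Arntl, had a difference of 0.15, and the E-box repressors Bhlhe40 and Bhlhe41 had −0.17 and 0.17, none of which passed (limma adjusted p = 0.73, 0.74 and 0.71).

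Set against the core genes mouse by mouse, Ciart followed Per1 (r = 0.90, exact permutation p = 0.00094, adjusted p = 0.023; rho = 0.86, exact permutation p = 0.011), with 0.78 without the 2 mice farthest from the median of Per1 and 0.82 from deviations from the diet means. Dbp ran against Clock (r = −0.88, exact permutation p = 0.0040, adjusted p = 0.048; rho = −0.81, exact permutation p = 0.022), but at −0.42 without HFD+WBM replicates 1 and 3. Tef ran against Arntl (r = −0.85, exact permutation p = 0.0080, adjusted p = 0.052; rho = −0.83, exact permutation p = 0.015), at −0.95 without the 2 farthest mice and −0.55 from deviations from the diet means. The family held 24 pairs, 8 accessory genes each with Arntl, Clock and Per1. Arntl, Clock and Per1 are also the clock genes called between the diets in these same mice. Values of r over the 8 mice therefore carry the diet difference, and the adjustment does not allow for that choice of genes. Of the 24 pairs, 6 had p under 0.05 and 2 an adjusted p under 0.05, and from deviations from the diet means 4 and 0.

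Among 23 measured genes for enzymes and cofactors that act on clock proteins, 2 were called higher and 0 lower, a share near the 4.85% of all genes called higher, with a median of 0.06. Arntl2, the paralog of Arntl, was at 6.56, 6.69, 6.25 and 6.23 in HFD+WBM livers, against 5.55, 6.01, 5.51 and 6.06 in HFD livers. All HFD+WBM mice were above all HFD mice, the opposite of the order for Arntl (0.65 ± 0.19, SE; limma p = 0.0075, adjusted p = 0.37, exact permutation p = 0.029). Csnk2a2, a catalytic subunit of casein kinase II, was higher by 0.43, again without overlap (limma p = 0.034, adjusted p = 0.40, exact permutation p = 0.029). Among all genes, 3.21% had every HFD+WBM mouse above every HFD mouse. Arntl2 was called without each of the 8 mice in turn, and Csnk2a2 in 3 of these 8 fits (lowest difference 0.31, without HFD+WBM replicate 2). The mean of Arntl2 over the 8 mice, 6.11, lies below the median of all genes, 7.27, and dim values have no background limit here.

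Of 11 measured output genes of the liver clock, 3 were called higher and 1 lower, against 4.85% and 6.9% of all genes, with a median of 0.09. Noct, which encodes the rhythmic phosphatase nocturnin, was at 10.51, 10.52, 10.48 and 10.50 in HFD+WBM livers, against 9.49, 10.64, 8.51 and 9.96 in HFD livers. The HFD+WBM mice were nearly equal, and HFD replicate 3 was farthest below them (0.85 ± 0.38, SE; limma p = 0.047, adjusted p = 0.42, exact permutation p = 0.14). Without HFD replicate 3 the difference was 0.47 and not called, and the call of Noct held only without HFD replicate 2 (1.18) or 4 (0.96). Alas1, the first enzyme of heme synthesis, was higher by 0.47 (limma p = 0.045, adjusted p = 0.42, exact permutation p = 0.11) and Upp2, a uridine phosphorylase, by 0.58 (limma p = 0.021, adjusted p = 0.39, exact permutation p = 0.057). The call of Alas1 held in 2 of the 8 fits without a mouse (differences 0.37 to 0.63 over the 8) and that of Upp2 in 5 (0.42 to 0.72). Insig2, which retains SREBP proteins in the endoplasmic reticulum and is under REV-ERBα control in mouse liver, was at 10.66, 10.33, 9.98 and 10.58 in HFD+WBM livers and at 10.64, 10.87, 11.48 and 11.51 in HFD livers. HFD replicates 3 and 4 were the highest, and the difference was −0.74 ± 0.24 (SE; limma p = 0.014, adjusted p = 0.38, exact permutation p = 0.057), called without each mouse in turn.

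Genes whose rhythm follows systemic cues such as body temperature had 0 of 7 called, with a median of −0.04. Among all genes 6.9% were called lower and 4.85% higher, and 7 genes are too few to tell 0 from these shares. Of 9 glucocorticoid-responsive genes, 2 were called higher, against 4.85% of all genes, the metallothioneins Mt1 (difference of 1.22) and Mt2 (1.61), with limma adjusted p = 0.37 and 0.38 and exact permutation p = 0.057 for both; Mt2 was not called without HFD replicate 1 (1.26). All 9 differences were above 0, with a median of 0.31. Whether these genes have a part in the values of Per1 was not tested.

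Markers of other liver cells differed along with the diets. Of 12 markers of Kupffer cells and macrophages, 11 were called lower with HFD+WBM and 0 higher, against 6.9% and 4.85% of all genes, led by C1qc, Cd68, Lyz2, C1qa, C1qb and Vsig4. Their summed level on the linear scale was 6527 to 9181 in HFD+WBM livers and 9562 to 13971 in HFD livers, without overlap, and no marker was at 0 (lowest log2 value 5.26). Of 8 stellate cell markers 7 had a lower mean with HFD+WBM and 4 were called lower (Col1a1, Col1a2, Col3a1 and Lrat), with sums of 2087 to 3060 in HFD+WBM livers and 2748 to 4594 in HFD livers. All 8 sinusoidal endothelial markers had a lower mean, of which 1, Lyve1, was called, a share near that of all genes, with sums of 4780 to 6910 in HFD+WBM livers and 5420 to 8603 in HFD livers. None of 8 hepatocyte, 7 lymphocyte, 5 cholangiocyte and 5 adipocyte markers was called. The part of these cells in the values of Arntl, Clock and Per1 was not tested, and in whole liver fewer cells of a type and less RNA per cell cannot be told apart.

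The genes whose values over the 8 arrays were most like those of Arntl, among 9969 genes with a mean at or above the median of all genes, were Lgalsl (r = 0.97), Smpd1 (0.97), Cript (0.97), Rplp0 (0.95) and Aasdhppt (0.95). The most opposite were Ifne (−0.96), Arid1a (−0.96), Mir30c-1 (−0.96), Armc7 (−0.96) and Slc25a37 (−0.94). No core clock gene was near either end: by r with Arntl, Clock was in place 950 of 9969 and Per2, the lowest core gene, in place 9459. Accessory clock genes were not placed, and among them Tef (−0.85) and Dbp (−0.74) had a lower r with Arntl than Per2 (−0.70). For Nr1d1, among 9968 genes, the most alike were Nlrp5-ps (0.95), Lemd2 (0.92), Abhd17a (0.90), Cir1 (0.89) and Cenpb (0.88), and the most opposite Uqcrb, Rfx2, Saxo2, Ankrd13b and Tmem72 (−0.96 to −0.94). For Per2 they were Lzts3 (0.96), Etfa (0.95), Acin1 (0.95), Pspn (0.94) and Cep68 (0.93), with Zfx, Cryl1, Mcur1, Abcd4 and Sh3bp5l at the other end (−0.97 to −0.93). These likenesses over 8 arrays are given as descriptions.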

How the data were processed

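The study's array processing took raw probe intensities through background correction, normalization and summary into transcript-level probe sets (IterPLIER, Affymetrix Power Tools 1.8.6, a version the submitters' notes repeat). The authors deposited log2 expression values, 28944 probe sets on each of 8 arrays. Neither an offset before the log, nor the method of normalization between arrays, nor detection calls are given in these sources, so low values carry no background limit. The diet and replicate number of each mouse came from the sample labels, which name separate liver specimens.

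Probe sets naming 1 gene (21789; 21698 matched by gene number to GRCm38.p6) were kept, with the brightest per gene, which gave 19938 genes. The fit, with diet as its term, used lmFit and eBayes (limma 3.58.1, R 4.3.3). Called means p under 0.05 before adjustment. Members, lists and tests were chosen with earlier results of these data known. Named genes were the measured members, 8 accessory clock genes, and up to 6 genes per list with the smallest p under 0.05. Timeless was added as the accessory gene with the lowest difference. With Npas2 unmeasured, 14 activator-repressor pairs replaced the 21 planned. Correlations used exact permutation of pairings (40320 orders; 576 within diets), two-sided, with Python 3.11.15 and scipy 1.17.1. Fits and permutations were tested on simulated data. The number of arrays limits the precision. The labels do not say what the replicate numbers mark. Same-numbered deviations over all genes correlated at −0.12 to −0.02, which cannot exclude a pairing that acts on few genes. Alternatives were scaling, offsets, filter, probe set choice, variance prior, array weights, an equal-variance test, the block and leaving out each mouse.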

Additional observations from a re-analysis of the deposited data

Results flagged for a closer look

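Among the 34 groups of 4 mice examined (17 clock and accessory genes in each diet), 2 had a mouse far from the other 3, where chance alone marks about 1 in 20. Per3 was at 8.76 in HFD+WBM replicate 2, while the remaining 3 mice of that diet had 9.45 to 9.56. Rora was at 10.48 in HFD+WBM replicate 2, while the remaining 3 mice of that diet had 10.07 to 10.10. Both values belong to the same mouse, low for Per3 and high for Rora.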

How the results depend on the processing

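Arntl kept its direction and p under 0.05 in all 17 alternatives that tested it (difference −1.18 to −0.60; adjusted p of 0.094 to 0.57); it was not tested among the brightest 50% of genes. Clock stayed lower in all 18 and Per1 higher in all 18, each past the threshold in 11. The number of clock genes called, 3, was 1 with array weights and 1 to 3 when each mouse was left out, and 2 or 3 in the other settings. Cry1 turned to 0.012 with array weights and to 0.052 without HFD+WBM replicate 3 (leaving out each mouse gave −0.23 to 0.05). Nr1d2 passed only with the equal-variance test. Negative activator-repressor pairs numbered 8 to 12 of 14. Over all genes, the count past the study's thresholds, 152, was 65 and 32 with offsets of 16 and 64, 43 among the brightest 50% of genes, 98 with the equal-variance test, and 154 to 235 when each mouse was left out. The replicate block rests on numbers whose meaning the labels do not give. It kept the calls of Arntl and Per1 and lost that of Clock (2 clock genes called), with 1757 genes called against 2341. Genes past an adjusted p of 0.05, 0 here, numbered 139 with limma's trended prior, 80 and 2 with offsets of 64 and 16, 19 among the brightest 50% of genes, 1 without HFD+WBM replicate 2 and 0 in the other settings, and no clock gene was among them. The arm means were not computed among the brightest 50% of genes, where Arntl is missing. With 4 mice a diet and 1 time of collection per mouse, differences in level and in phase of a rhythm cannot be told apart. Dim values have no background limit here.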
